A study of Homo sapiens with 9 samples.

Results

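The gene.human_ rows are the 111 rows, of 60829 in the authors' gene table, whose identifiers start with gene.human_. All of them are described here except the 3 that the authors marked as the knocked-out feature, which leaves 99 rows with enough reads for testing and 9 without. The table gives them no gene symbol and no gene type, and no length, position or sequence for them is held in the sources used here. That they derive from retroelements is therefore not something the files annotate, and they are called gene.human_ rows throughout. Each is referred to by its place when these rows are ordered by their mean normalized count over all 9 libraries, so that row 1 is the most abundant. A normalized count is a read count that the authors scaled with a single size factor for each library.

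The cells were H1, an established human embryonic stem cell line. The knockout clone carried a knockout of HERVHlin on chromosome X and gave 5 libraries, and the control clone, with the genotype label WT, gave 4. The libraries of each clone come from successive passages of 1 clone, which the study treated as technical replicates although the sample titles number them as biological ones. The p-values thus reflect variation among passages of a single clone of each genotype, and the genotype and the clone cannot be told apart. Both clones were kept in mTeSR stem cell medium on vitronectin, while the treatment label of all 9 libraries reads "differentiated cells". Libraries were made from rRNA-depleted total RNA and held 19838682 to 31192630 reads each, of which protein-coding rows took between 26.3% and 50.8%, the highest share in control 3. The 3 marked rows, which check the labels, did not move alike. By limma 2 of them fell, with log2 fold changes of -5.49 and -2.51 (adjusted p of 0.00018 and 0.016). The third, which held most of the marked reads in the knockout clone, overlapped between the clones at 1452 ± 307 normalized counts in the knockout clone (SD, n = 5), against 2403 ± 841 in the control clone (SD, n = 4), and did not pass (log2 fold change -0.68, limma adjusted p = 0.44).

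HERVH is a family of human endogenous retroviruses, remnants of ancient infections of the germ line that were copied to many places in the genome. Its long terminal repeats act as promoters in human pluripotent cells, where they are bound by pluripotency factors and drive long noncoding RNAs and transcripts fused to neighbouring genes. Copies of a family resemble one another, so a short sequencing read can fit several of them. How reads of related copies were divided among the gene.human_ rows was not measured.

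The gene.human_ rows covered a wide range of abundance. On the scale of mean normalized counts, which is not corrected for transcript length, 21 rows reached 1000, 75 reached 100 and 100 reached 10, and 3 had no reads in any library. The median over all of them was 214 normalized counts. Among the 99 tested rows it was 236, beside 207 for tested protein-coding rows, 26.5 for tested long noncoding RNA rows and 75.5 for all 27777 tested rows. In the whole table, 14 of them stood among the 1000 most abundant rows and 34 among the 5000 most abundant. Row 1, gene.human_00005141, was at place 190 of all rows. Reads were found in all 9 libraries for 89 of the rows.

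**Figure D1:**
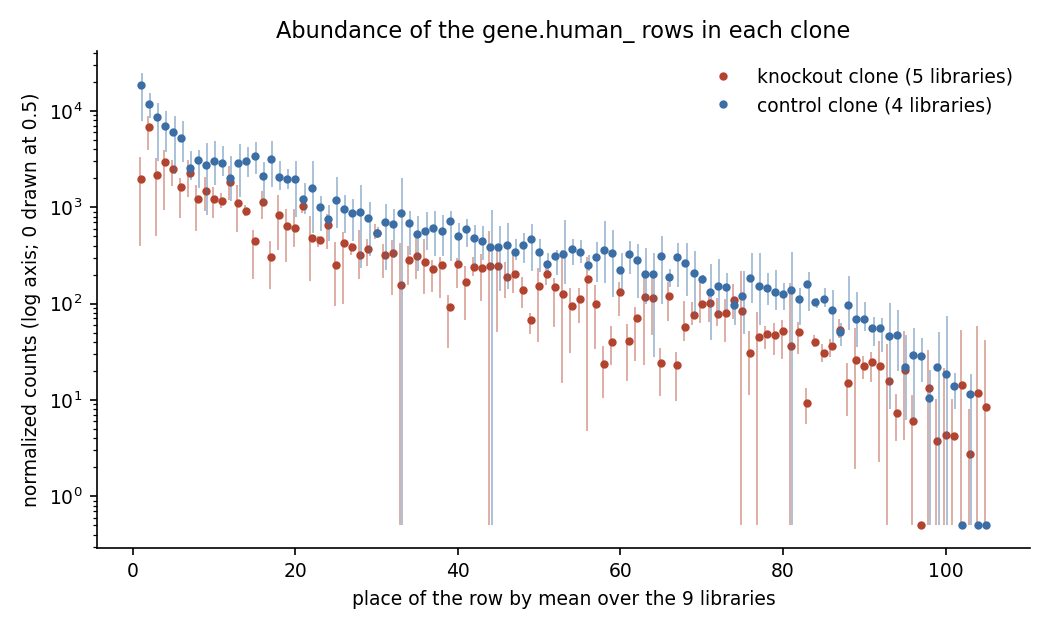
Mean normalized count (log axis) of each gene.human_ row in the knockout clone (red, 5 libraries) and the control clone (blue, 4 libraries) against its place by mean over the 9 libraries, with lines from the lowest to the highest library of the clone. The 3 rows without reads are not drawn, and at most places the red point lies below the blue one.

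A few rows held most of these reads. The 10 most abundant rows made up 52.5% ± 3.34 of the summed count in the knockout clone (SD, n = 5) and 55.5% ± 3.17 in the control clone (SD, n = 4), ranges that overlapped. The 20 most abundant made up 70.4% to 74.08% in the knockout libraries and 74.09% to 78.2% in the control libraries, ranges that just failed to meet. The share of row 1 was further apart, at 1.43% to 6.14% in the 5 knockout libraries and 11.6% to 19.5% in the 4 control libraries, with no overlap. By clone means row 1 was the most abundant in the control clone only, and row 2 had the highest mean in the knockout clone.

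The order of the rows was largely shared by the libraries. Spearman's rho over the rows was 0.931 between the means of the 2 clones. Pairs of knockout libraries gave 0.840 to 0.958 (median 0.901, 10 pairs) and pairs of control libraries 0.905 to 0.945 (median 0.924, 6 pairs). Pairs of a knockout and a control library gave 0.827 to 0.922 (median 0.873, 20 pairs), a range that overlapped both. These are descriptions across rows, which share libraries and sequence content and are not independent replicates.

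The summed count of the gene.human_ rows was lower in every knockout library than in any control library. It was 27826, 45960, 51557, 47518 and 54059 normalized counts in knockout libraries 1 to 5, against 137243, 110193, 175833 and 67802 in control libraries 1 to 4. Knockout 1 was the lowest of its clone, and control 4 and control 3 were the lowest and the highest of theirs. Control 3 was also the library with the most protein-coding reads. Per 1000000 normalized counts of protein-coding rows, a scale chosen after that was seen, the sum was 3544, 5006, 4912, 6372 and 6761 in knockout libraries 1 to 5, against 14643, 11835, 12486 and 8954 in control libraries 1 to 4. On this scale control 3 no longer stood highest, the clones still did not overlap, and the mean was 5319 ± 1285 in the knockout clone (SD, n = 5), against 11980 ± 2347 in the control clone (SD, n = 4), a 2.25-fold difference. As a share of all reads the sum was 0.0931% to 0.321% in the knockout libraries and 0.326% to 0.635% in the control libraries, which nearly met.

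**Figure D2:**
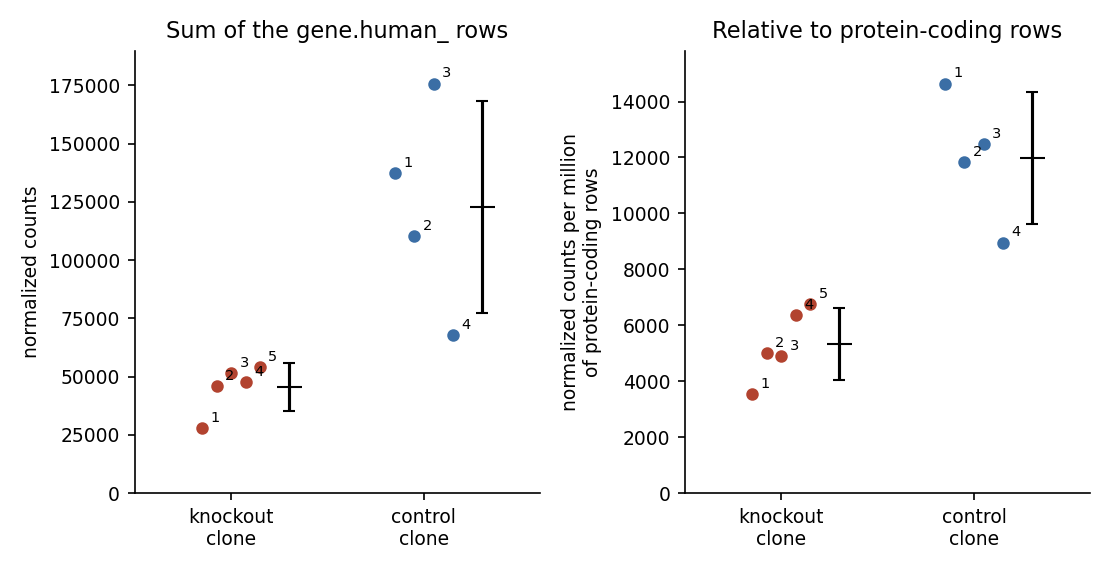
Sum of the gene.human_ rows in each library in normalized counts (left) and per 1000000 normalized counts of protein-coding rows (right), with replicate numbers beside the points and bars for the mean ± SD of the knockout clone (n = 5) and the control clone (n = 4). In both panels the 5 knockout libraries lie below the 4 control libraries.

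The difference in the sum did not rest on the most abundant rows alone. Without the 5 most abundant rows the sum was 29063 ± 5638 normalized counts in the knockout clone (SD, n = 5) and 70789 ± 26670 in the control clone (SD, n = 4), a 2.44-fold difference. Row 1 accounted for 21.6% of the difference in summed means, and the 10 most abundant rows for 57.6%, close to their share of the reads. As these are bulk libraries, fewer cells with such transcripts and less RNA per cell cannot be told apart.

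Row by row, the knockout clone had lower values across most of the rows. Differences were tested with limma on log2(normalized count + 1) over all 27777 tested rows, and a row was called at a Benjamini-Hochberg adjusted p under 0.05. Of the 99 tested gene.human_ rows 17 fell, or 17.2%, where 0.425% of all tested rows were called lower. None rose by limma, edgeR or DESeq2 (0 also at an unadjusted limma p under 0.05), where 0.115% of all tested rows were called higher by limma. At an unadjusted limma p under 0.05, 72 of the 99 were lower, against 1403 lower and 994 higher of all 27777. The lower and upper quartiles of the log2 fold changes of the 99 rows were -2.02 and -0.92, beside a median of 0.01 for all tested rows, -0.09 for protein-coding rows and 0.19 for long noncoding RNA rows. Of 6925 tested long noncoding RNA rows 30 were called lower, or 0.433%.

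The sizes of the differences spread widely. By the ratio of the clone means, 26 rows were 1 to 2 times lower in the knockout clone and 49 were 2 to 4 times lower. A further 11 were 4 to 8 times lower and 9 at least 8 times lower, and 4 were not lower. In 41 of the 99 rows every knockout library lay below every control library, where 2.6% of all tested rows did, and all 17 called rows were among them. No row had every knockout library above every control library. The difference was present at all levels of abundance. Among rows with a mean of 1000 or more normalized counts 4 of 21 fell and the median log2 fold change was -1.31, where 0.562% of all such rows were called lower and their median was -0.18. Between 100 and 1000 it was 8 of 54 and -1.15, beside 0.518% and -0.07 for all rows of that range. Under 100 it was 5 of 24 and -1.74, beside 0.344% and 0.16.

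**Figure D3:**
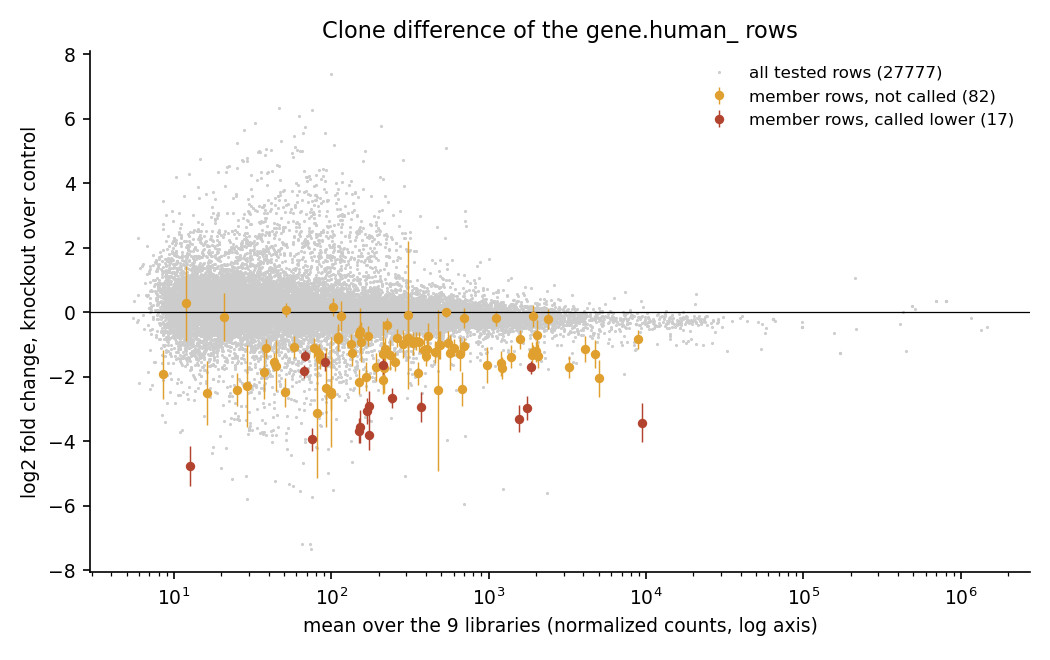
Fitted log2 fold change of knockout over control against mean normalized count (log axis) for all tested rows (grey), gene.human_ rows that were not called (orange) and those called lower (red), with bars of 1 SE. The coloured points lie mostly below 0 along the whole axis, and the called ones are spread from a mean of 12.7 to 9408 normalized counts.

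Other tests on the same libraries moved the count but not its direction. The count test on recovered reads, edgeR's quasi-likelihood test, called 17 rows lower (0.432% of all tested rows), of which 16 were among limma's 17. DESeq2 called 50 lower (1.62% of all rows) and 0 higher, and these included all 17. Of the 102 rows with an adjusted p in the authors' deposited table, 51 were lower and 0 higher, where 1.53% of all its rows with an adjusted p were lower. With the replicate number as a block, which pairs 4 libraries of each clone, 7 of the 17 passed. Without 1 library, the count ran from 10 (without control 1, or without control 3) to 28 (without control 4), and all 9 of these fits called 10 of the 17. These are rows 14, 15, 17, 49, 58, 61, 67, 83, 84 and 85.

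Among the 10 most abundant rows, the difference between the clones was largest in row 1. Row 1 had 399, 1920, 1494, 2774 and 3317 normalized counts in knockout libraries 1 to 5, against 20877, 21537, 24500 and 7855 in control libraries 1 to 4. Control 4 was low for its clone and still lay above every knockout library. This is a log2 fold change of -3.42 with an SE of 0.60 (limma adjusted p = 0.045). This call lay at the threshold: edgeR gave an adjusted p of 0.04998, the replicate block gave a limma adjusted p of 0.16, and with 1 library left out the row passed only without control 4 or without knockout 1 (highest limma adjusted p 0.16). It also missed the threshold with no filter on low values, under quantile normalization and under scaling to protein-coding sums (limma adjusted p of 0.059, 0.061 and 0.054).

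Rows 2 to 10 were not called by limma or edgeR, while DESeq2 called rows 3, 5, 6, 8 and 10 lower. Row 2 had 3881, 4795, 7930, 8180 and 8879 normalized counts in knockout libraries 1 to 5, against 12718, 10256, 15196 and 8400 in control libraries 1 to 4. Its clones overlapped only through knockout 5 and control 4, and its difference of -0.83 on the log2 scale (SE 0.30) did not pass (limma adjusted p = 0.42). Row 3 had 508, 2449, 2726, 1945 and 3254 normalized counts in knockout libraries 1 to 5, against 11188, 8230, 12175 and 3046 in control libraries 1 to 4, and overlapped through the same libraries (log2 fold change -2.05). Row 6 had 781, 1628, 1988, 1745 and 1878 normalized counts in knockout libraries 1 to 5, against 6292, 4049, 7780 and 2960 in control libraries 1 to 4. Its clones did not overlap, and its log2 fold change of -1.69 (SE 0.35) missed the threshold (limma adjusted p = 0.092), which it passed without control 4 (limma adjusted p = 0.0496). Row 10 likewise did not overlap (log2 fold change -1.21). Rows 4, 5, 8 and 9 overlapped, with log2 fold changes of -1.29, -1.14, -1.36 and -0.70.

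Row 7 had the smallest difference of the 10 most abundant rows. It had 1287, 1806, 2120, 2942 and 3069 normalized counts in knockout libraries 1 to 5, against 1960, 1909, 3812 and 2565 in control libraries 1 to 4. The clones overlapped widely, and the log2 fold change was -0.20 (SE 0.30), an interval of 2 SE on each side running from -0.81 to 0.40. Its sign turned under quantile normalization, under scaling to protein-coding sums and without control 3. Rows 12 and 21, named after their values were seen, were also near 0, with log2 fold changes of -0.11 (SE 0.33) and -0.18 (SE 0.23).

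Of the 17 called rows, the largest fall at a mean of 50 or more normalized counts was in row 83, gene.human_00008398. It had 13.4, 5.64, 12.8, 7.47 and 7.37 normalized counts in knockout libraries 1 to 5, against 182, 157, 213 and 83.1 in control libraries 1 to 4. The knockout libraries were near the low end of detection, and the lowest control library was still above the highest of them. This is a log2 fold change of -3.94 with an SE of 0.35 (limma adjusted p = 0.0013), and the row also passed with the block and in all 9 fits without 1 library. The ratio of the clone means was 17.0.

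Rows 58, 65 and 67 had a similar size of fall at a higher abundance. Row 67 had 28.7, 25.9, 31.4, 9.72 and 20.6 normalized counts in knockout libraries 1 to 5, against 428, 314, 336 and 150 in control libraries 1 to 4 (log2 fold change -3.67, SE 0.39, limma adjusted p = 0.0032). Row 58 had 14.4, 36.1, 31.4, 10.5 and 25.8 normalized counts in knockout libraries 1 to 5, against 288, 275, 713 and 163 in control libraries 1 to 4 (log2 fold change -3.79, SE 0.47, limma adjusted p = 0.0073). Row 65 had 31.6, 30.4, 34.9, 13.5 and 11.1 normalized counts in knockout libraries 1 to 5, against 498, 272, 372 and 99.3 in control libraries 1 to 4 (log2 fold change -3.54, SE 0.51, limma adjusted p = 0.017). In all 3 rows control 4 was the lowest control library. All 3 passed with the block, and row 65 missed the threshold without control 1, control 2, control 3 or knockout 4 (highest limma adjusted p = 0.070).

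Another pair of called rows were over 1000 normalized counts and fell about as far. Row 17 had 143, 443, 323, 377 and 251 normalized counts in knockout libraries 1 to 5, against 4054, 1993, 4854 and 1613 in control libraries 1 to 4 (log2 fold change -3.29, SE 0.41, limma adjusted p = 0.0073). Row 15 had 181, 471, 448, 534 and 582 normalized counts in knockout libraries 1 to 5, against 4261, 2439, 4734 and 2229 in control libraries 1 to 4 (log2 fold change -2.97, SE 0.37, limma adjusted p = 0.0073). Knockout 1 was the lowest library of both rows. Both passed in every fit without 1 library and did not pass with the replicate block (limma adjusted p of 0.13 for row 17 and 0.11 for row 15).

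The remaining 3 of the 10 largest called falls were less abundant. Row 61 had 61.3, 49.6, 46.6, 15.7 and 28.7 normalized counts in knockout libraries 1 to 5, against 282, 382, 446 and 201 in control libraries 1 to 4 (log2 fold change -3.07, SE 0.40, limma adjusted p = 0.0090). Row 39 had 34.5, 98.1, 112, 95.7 and 124 normalized counts in knockout libraries 1 to 5, against 861, 848, 915 and 279 in control libraries 1 to 4 (log2 fold change -2.93, SE 0.45, limma adjusted p = 0.024). Row 59 had 47.9, 44.0, 26.8, 23.2 and 59.0 normalized counts in knockout libraries 1 to 5, against 587, 242, 407 and 117 in control libraries 1 to 4 (log2 fold change -2.89, SE 0.46, limma adjusted p = 0.030). Row 61 passed with the block and in all 9 fits without 1 library. With the block, rows 39 and 59 missed the threshold (limma adjusted p of 0.13 and 0.056). Without 1 library, row 39 passed only without control 4, knockout 1 or knockout 3 and row 59 only without control 4 (highest limma adjusted p of 0.099 in both).

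The other called rows had log2 fold changes of -1.35 to -2.66, apart from row 97. They are rows 14, 49, 55, 78, 84 and 85, of which rows 55 and 78 passed in 3 and 1 of the 9 fits without 1 library (highest limma adjusted p of 0.098 and 0.14). With the block rows 14 and 85 passed, and rows 49, 55, 78 and 84 missed the threshold (limma adjusted p of 0.060, 0.17, 0.14 and 0.083). Row 14 was the most even of the abundant ones, with 871, 810, 1057, 883 and 932 normalized counts in knockout libraries 1 to 5, against 3035, 2829, 4238 and 2062 in control libraries 1 to 4 (log2 fold change -1.70, SE 0.20, limma adjusted p = 0.0049). Row 84 was even in both clones, with 43.1, 38.3, 37.3, 35.1 and 47.2 normalized counts in knockout libraries 1 to 5, against 102, 115, 90.2 and 107 in control libraries 1 to 4 (log2 fold change -1.35, SE 0.17, limma adjusted p = 0.0077). Rows 14 and 84 and row 97 were picked out after their values were seen.

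Row 97 was the single called row with no reads in 1 clone. It passed the filter on low values through the control libraries alone, so that it had to differ, and its call is a description. With the filter set instead at a mean of 50 or more over all libraries, which leaves row 97 out, 18 of 88 gene.human_ rows were called lower. Over all rows this filter kept 16246, of which 90 were called lower. That filter does not remove the limit. Called rows 58, 59, 61, 65, 67, 78, 83, 84 and 85 had knockout means of 9.34 to 48.5 and reached it through the control libraries. In the 5 knockout libraries row 97 had 0 reads, against 36.1, 18.6, 43.8 and 15.4 normalized counts in control libraries 1 to 4. Against a floor of 3 reads over the knockout libraries it was at least 50.1-fold lower, a bound that covers counting error only. Its limma adjusted p was 0.0089, and it did not pass with the replicate block (limma adjusted p = 0.13) or when control 1 or control 3 was dropped (highest limma adjusted p = 0.068).

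**Figure D4:**
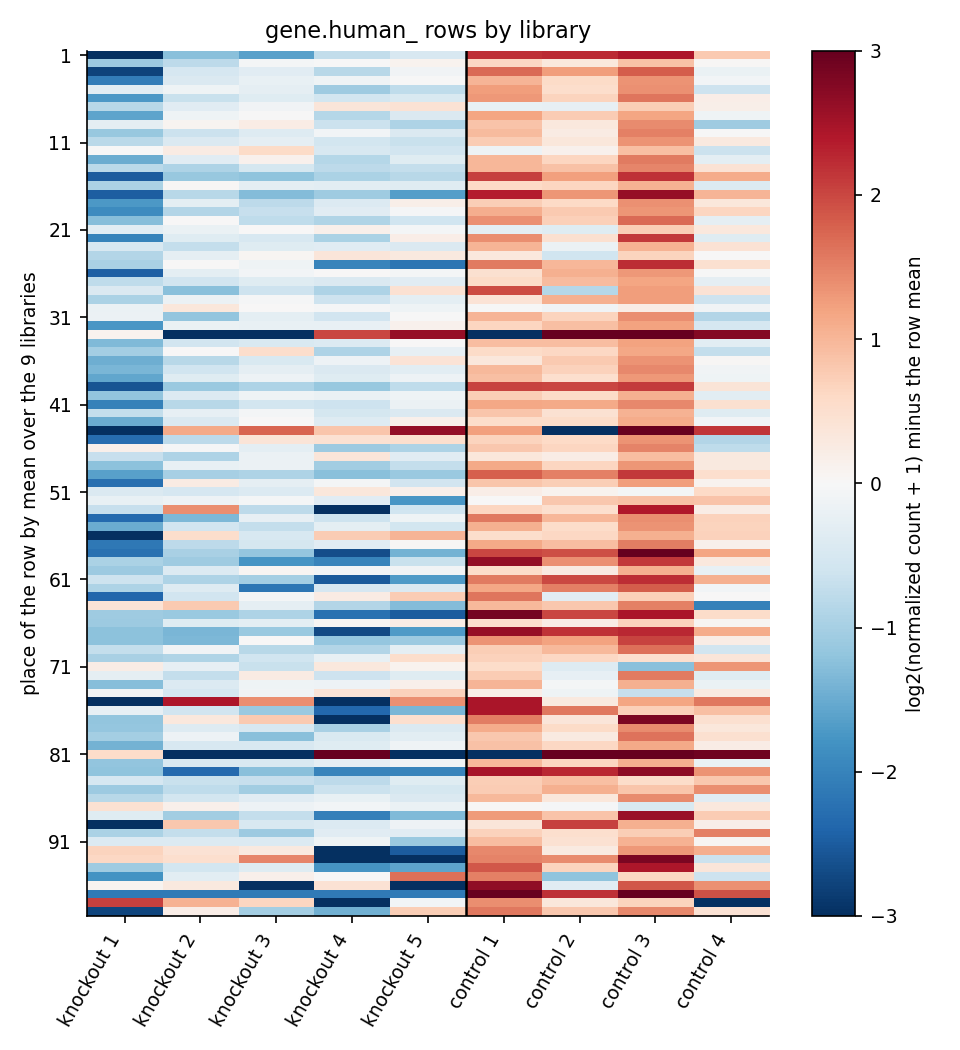
Each of the 99 tested gene.human_ rows (by place, row 1 at the top) in the 5 knockout libraries (left) and the 4 control libraries (right), as log2(normalized count + 1) minus the mean of the row over the 9 libraries, with colours capped at 3 in either direction. Most rows are blue on the left and red on the right, knockout 1 and control 3 carry the deepest colours, and control 4 is the palest control library.

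Not every row was lower in the knockout clone. Of the 99, 4 had a positive log2 fold change, 3 of them at a mean of 50 or more normalized counts, and none of these passed. Row 30 had 467, 676, 538, 517 and 489 normalized counts in knockout libraries 1 to 5, against 531, 496, 622 and 491 in control libraries 1 to 4. The clones overlapped throughout, and the log2 fold change was 0.00 (SE 0.15), an interval of 2 SE on each side from -0.29 to 0.30. A difference of the median size among these rows lies outside that interval. Row 87 had 69.9, 56.4, 45.4, 47.8 and 44.2 normalized counts in knockout libraries 1 to 5, against 52.1, 49.7, 36.5 and 63.2 in control libraries 1 to 4 (log2 fold change 0.07, interval of 2 SE from -0.38 to 0.52). Row 74 had 92.0, 68.8, 92.0, 129 and 158 normalized counts in knockout libraries 1 to 5, against 114, 90.1, 60.2 and 118 in control libraries 1 to 4 (log2 fold change 0.16, SE 0.29). The sign of all 3 turned under at least 1 other setting.

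A few rows had no reads in some libraries and many in others of the same clone. How reads of related copies were divided among these rows was not measured. In 4 rows (33, 44, 75 and 81) a library at 0 and a library at 100 or more normalized counts occurred in the same clone, and none of them was called. Row 33 had 74.7, 3.38, 0, 280 and 428 normalized counts in knockout libraries 1 to 5, against 0, 1041, 2008 and 473 in control libraries 1 to 4. Row 44 had 0, 200, 305, 164 and 566 normalized counts in knockout libraries 1 to 5, against 215, 0, 925 and 407 in control libraries 1 to 4. The libraries at 0 differed between the rows. Both rows were chosen for display after their values were seen. Over the 88 rows with a mean of at least 50, the median coefficient of variation was 35.4% in the knockout clone and 39.8% in the control clone, beside 19.9% and 31.2% over all 16227 such tested rows.

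The 9 rows that were not tested were sparse, with a highest mean of 11.9 normalized counts. Besides the 3 without reads, 6 had reads in some libraries, and 3 of these in knockout libraries only. Differences in them were not assessed.

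The gene.human_ rows varied together between libraries of the control clone, and less so in the knockout clone. To describe this, each row's log2(normalized count + 1) was expressed as the deviation from the mean of its clone, which removes the difference between clones. The mean Pearson correlation over all pairs of the 99 rows across the 9 libraries was 0.320, and 0.353 over the rows with a mean of at least 50. Over rows with a mean of at least 50 it was 0.230 for protein-coding rows, 0.114 for long noncoding RNA rows and 0.0680 for all tested rows. Over rows of that level, it was 0.231 for the gene.human_ rows and 0.180 for protein-coding rows within the knockout libraries alone, and 0.493 and 0.261 within the control libraries alone. It was 0.312 among the called and 0.321 among the uncalled gene.human_ rows. The rows share libraries, depth and composition, so these correlations are descriptions and carry no p.

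The rows deviated most in knockout 1, control 3 and control 4. The median deviation of the rows in knockout libraries 1 to 5 was -0.49, 0.16, 0.21, 0.14 and 0.26, and in control libraries 1 to 4 it was 0.23, -0.10, 0.57 and -0.69 (log2). Thus knockout 1 was low in its clone, and control 3 was high and control 4 low in theirs. Leaving out any 1 library kept the mean correlation over the 99 rows between 0.254 and 0.353. Of the 99 rows 77 had their highest control value in control 3 (77.8%, beside 35.9% of all tested rows) and 72 their lowest in control 4 (72.7%, beside 28.1%). In the knockout clone 58 had their lowest value in knockout 1 (58.6%, beside 15.4%) and 37 their highest in knockout 5 (37.4%, beside 16.2%).

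**Figure D5:**
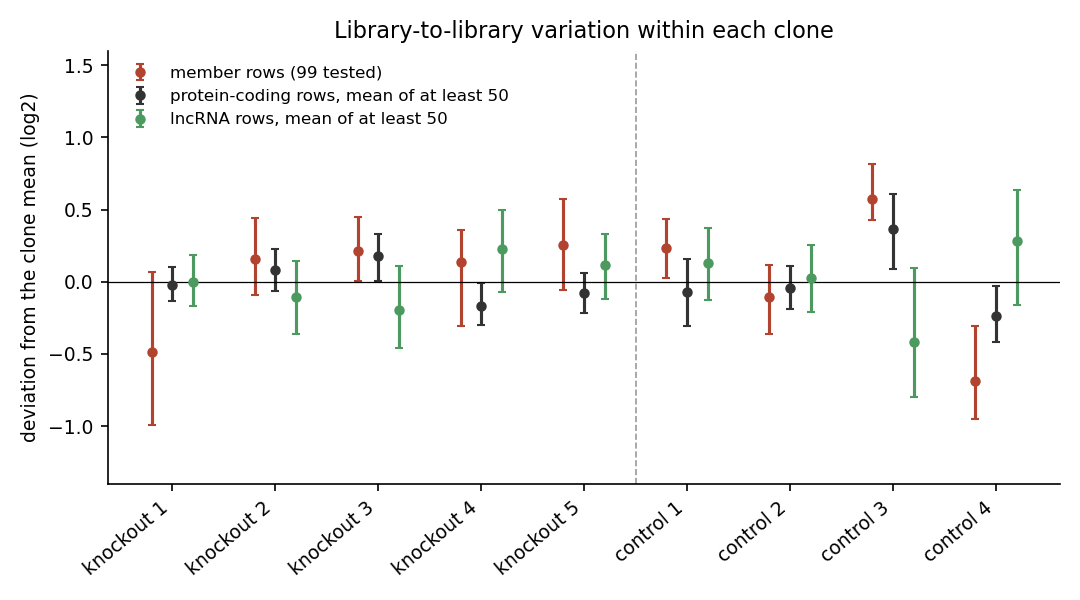
Median deviation from the clone mean (log2, with bars from the lower to the upper quartile) in each library for the 99 tested gene.human_ rows (red), protein-coding rows (black) and long noncoding RNA rows (green), the last 2 with a mean of 50 or more normalized counts. In control 3 and control 4 the red and black points lie on the same side of 0 and the green ones on the other, and in knockout 1 only the red point lies far from 0.

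Other rows moved with them in part. In control 3 and control 4 the median protein-coding row deviated by 0.36 and -0.24, in the same direction as the gene.human_ rows, and the median long noncoding RNA row by -0.42 and 0.28, in the opposite one. POU5F1, the pluripotency factor OCT4, deviated by 0.68 and -0.63 in these libraries, and ESRG, an HERVH-derived long noncoding RNA of pluripotent cells, by 0.82 and -0.55. In knockout 1, where the gene.human_ rows lay at -0.49, the median protein-coding row lay at -0.02, POU5F1 at -0.11 and ESRG at -0.42. Knockout 1 had the highest share of reads in rows with miRBase-style names (31.4%) and the lowest protein-coding share (26.3%). The part of composition in the deviations of the gene.human_ rows was not tested.

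Not all rows followed the shared movement. Correlated with the mean of the other gene.human_ rows, 66 of the 99 had an r above 0.5, 20 had one from 0 to 0.5 and 13 had one below 0, and the median was 0.715. The median log2 fold change was -1.28, -1.85 and -1.55 in these 3 classes, so a lower level in the knockout clone was found in each of them. Of the 17 called rows 11 had an r above 0.5. Rows 84 and 85, both called, had an r of -0.457 and -0.319, and their control libraries lay between 90.2 and 115 and between 92.4 and 145 normalized counts. The lowest r was that of row 87 (-0.887), one of the rows with no lower level in the knockout clone.

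Transcripts with gene symbols that are associated with HERVH elements were also lower in part. Of 20 such symbols 16 were tested, 3 fell and none rose (11 were lower at an unadjusted limma p under 0.05, edgeR called 3 and DESeq2 7 lower), where 0.425% of all tested rows were called lower by limma and 1.62% by DESeq2. The median log2 fold change was -0.71, and the difference from the gene.human_ rows was not tested. SCGB3A2, a secretoglobin gene, had 42.1, 42.8, 82.7, 38.9 and 28.0 normalized counts in knockout libraries 1 to 5, against 288, 629, 725 and 266 in control libraries 1 to 4 (log2 fold change -3.27, limma adjusted p = 0.0051, and past the threshold in all 9 fits without 1 library and with the block). The clones did not overlap. ERVH-1, an HERVH transcript with a symbol of its own, had 58.4, 100.3, 141, 62.0 and 67.1 normalized counts in knockout libraries 1 to 5, against 627, 657, 809 and 210 in control libraries 1 to 4 (log2 fold change -2.66, limma adjusted p = 0.025). The long noncoding RNA LINC01108 had a log2 fold change of -2.49 (limma adjusted p = 0.020). With the block ERVH-1 and LINC01108 missed the threshold (limma adjusted p of 0.056 and 0.081), and without 1 library they passed in 2 and 3 of 9 fits (highest limma adjusted p of 0.10 and 0.091). ESRG had 2866, 3278, 5248, 3786 and 4515 normalized counts in knockout libraries 1 to 5, against 6100, 7470, 13137 and 5072 in control libraries 1 to 4. Its clones overlapped through knockout 3 and control 4, and its log2 fold change of -0.95 did not pass (limma adjusted p = 0.30).

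Genes reported to act on HERVH or on retroelements had few calls. Of 9 tested genes reported to activate HERVH transcription, 0 were called by limma or edgeR, and the median log2 fold change was -0.29. The chromatin remodeller CHD7 was the single one past an unadjusted limma p of 0.05, with a log2 fold change of 0.70, and DESeq2 called it higher. POU5F1 stood at -0.39 and NANOG, a pluripotency homeobox factor, at -0.29 on the log2 scale, neither past the threshold. Of 18 tested genes reported to silence retroelements, 1 fell and none rose by limma, and the median was -0.05. DESeq2 also called 1 higher, SMCHD1, a chromatin protein of repressed genes. The one that fell was PIWIL2, a PIWI protein that acts with small RNAs against transposons in the germ line, with a mean of 4.98 normalized counts in the knockout clone, against 111 in the control clone (log2 fold change -4.25, limma adjusted p = 0.00070). It passed in all 9 fits without 1 library and did not pass with the replicate block (limma adjusted p = 0.054). The knockout libraries held 2.33 to 7.89 normalized counts of PIWIL2, too few for the filter on low values. PIWIL2 was thus tested through the control libraries alone, and its call is a description.

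Both clones expressed the markers of human pluripotent cells. All 10 were tested, 0 were called by limma, edgeR or DESeq2, and their median log2 fold change was -0.39. At an unadjusted limma p under 0.05, 1 was lower, TDGF1 (log2 fold change -0.92, limma adjusted p = 0.39). Their summed level was 33303 to 49644 normalized counts in the knockout libraries and 37973 to 81318 in the control libraries. LIN28A, an RNA-binding protein of pluripotent cells, stood at -0.38 on the log2 scale. Markers of mesendoderm and endoderm summed to 8.85 to 23.3 normalized counts in the knockout libraries and 19.9 to 35.7 in the control libraries, and those of trophectoderm to 111 to 214 in the knockout libraries and 108.4 to 230.6 in the control libraries. Neural markers summed to 215 to 314 in the knockout libraries and 163 to 199 in the control libraries, mostly from MAP2, which limma did not call (log2 fold change 0.58, limma adjusted p = 0.25). Fibroblast markers summed to 2879 to 4509 in the knockout libraries and 3228 to 5815 in the control libraries, mostly from THY1, which human embryonic stem cells express as well. Of the matched markers of these other cell types, 1 of 7 for mesendoderm and endoderm and 2 of 6 neural ones were tested. So were 4 of 6 fibroblast and 1 of 5 trophectoderm markers. Of those tested 0 were called by limma or edgeR, and DESeq2 called MAP2 higher. At an unadjusted limma p under 0.05 MAP2 was higher and COL1A1 lower, and differences in the untested markers were not assessed. None of the matched markers was at 0 in all libraries. The part of these differences in the levels of the gene.human_ rows was not tested.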

How the data were processed

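Total RNA from 5 libraries of the knockout clone and 4 of the control clone was analysed from the gene table the authors deposited. The submitters' processing notes name fastp, kallisto, DESeq2 and hg38, with no version, role or order, and the annotation release and strand setting have no statement in the sources used here. The signal columns deposited by the authors hold gene counts scaled by a single size factor for each library. The authors also deposited a log2 fold change with its standard error, a test score, a p-value and an adjusted p-value per row, and another column that marks 3 rows as knocked out. Every value was a whole multiple of 1 read within a tolerance of 1e-06 (100% of values), so reads were recovered by division, 19838682 to 31192630 in a library, and 0 columns of per-sample values were left unassigned. The floor on reads covers counting error only. The intervals are built from the SE of the limma fit, which reflects variation among the libraries of each clone.

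The main test was limma 3.58.1 (R 4.3.3) with a trended prior variance, fitted to log2(value + 1) with the clone as the only term. It covered 27777 rows kept by edgeR's filterByExpr at a minimum count of 10, with Benjamini-Hochberg adjustment over all of them (threshold 0.05). On this scale the fold changes of low rows are understated. The alternatives were edgeR 4.0.16 on the recovered reads, which called 151 rows, DESeq2 1.42.0, other pseudocounts, filters and scalings, the replicate block and leaving out each library. Libraries of the same replicate number were taken as paired because the labels give that number as a batch. For replicates 1 to 4 their deviations correlated at 0.07, 0.02, 0.25 and 0.33 over all tested rows and at -0.24, -0.33, -0.20 and 0.44 over the gene.human_ rows. Knockout 5 has no partner and correlated with control 4 at 0.21 over all tested rows. Scripts were tested on simulated data. The rows and gene lists were chosen with earlier results of these data known. Rows named are the 10 most abundant, the 10 largest called falls with a mean of 50 or more normalized counts and the positive ones above that mean. As identifiers are not paired with names, 2 are printed.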

Additional observations from a re-analysis of the deposited data

Results flagged for a closer look

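Row 39, a called gene.human_ row, had a single library far from the others of its clone. Control 4 held 279 normalized counts, where the other 3 control libraries held between 848 and 915, and the gap made up 0.895 of the range of the 4 values (above the 95% critical value of Dixon's ratio for 4 samples). In all, 48 groups of 4 or 5 libraries were examined in this way, and chance singles out about 1 in 20. All 4 control values of the row lay above its 5 knockout values, and control 4 was the lowest control library for 72 of the 99 tested rows.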

How the results depend on the processing

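Over the settings tried, none of the gene.human_ rows was called higher and their median log2 fold change stayed negative (-1.53 to -1.12 without 1 library). With the paired fit, that is the replicate block, 7 rows were lower and the median was -1.41, and over all rows 43 were called (14 higher, 29 lower, against 32 and 118). DESeq2 called 50 gene.human_ rows lower and 593 rows in all (144 higher, 449 lower). Without 1 library 10 to 28 gene.human_ rows were lower, beside 54 to 136 lower over all rows, and 79 to 186 rows were called in all. Scaling to equal sums of protein-coding rows, added after the data were seen, moved the median of all tested rows from 0.01 to 0.21 and that of the gene.human_ rows to -1.10. So scaled, 17 gene.human_ rows were lower, beside 95 of all 27777 tested rows. Relative to all rows the median was -1.31 on both scales. The log2 ratio of the summed counts was -1.44, from -1.64 to -1.21 without 1 library, -1.46 with the block and -1.17 per protein-coding count. The mean correlation ran from 0.254 (without control 4) to 0.353.

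Row 1 lost its call in 11 of 19 settings. Of the rows named by rule, 4 near 0 changed sign. Row 7 was at 0.030 under quantile normalization, at 0.00026 under protein-coding scaling, and from -0.33 to 0.0073 (without control 3) with 1 library left out. Row 87 was at -0.024 under quantile normalization and from -0.073 (without control 3) to 0.19 with 1 library left out. With 1 library left out row 74 ran from -0.043 (without control 3) to 0.31, and row 30 from -0.085 (without knockout 2) to 0.075, its sign turning in 5 of these fits. The cause was not tested. Rows under the filter were not assessed.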

Other observations

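The identifiers end in a number whose meaning no source used here gives, and 23 pairs of tested gene.human_ rows carry consecutive numbers. The median absolute difference in log2 fold change within these pairs was 0.46, beside 0.89 over all 4851 pairs, and 12 of the 23 differed by under 0.5, beside 1504 of the 4851. The median correlation of their deviations from the clone means was 0.511, beside 0.406 over all pairs. Rows 65 and 67 form such a pair, with log2 fold changes of -3.54 and -3.67, while rows 30 and 54 (0.00 and -2.10) and rows 5 and 97 (-1.14 and -4.76) differ widely. Reads that 2 rows share would make their values alike, and this was not measured. The pattern was noticed in these data and was not tested.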
